A study of Mus musculus with 12 samples.

Results

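Fatty acid synthesis in the liver was followed through 10 genes: Acly, Acaca, Fasn, Scd1, Elovl6, Me1, Srebf1, Thrsp, Elovl5 and Fads2. They were chosen by name as textbook genes of the pathway, with earlier results of these data known. Found by symbol in the deposited table of transformed values, they were joined by Ensembl identifier to the table of counts, which lists 51912 genes. All 10 passed the filter on low counts and were among the 8594 genes tested. RNAseq was carried out on livers of 12 adult male mice on a C57BL/6NTac background, in 4 groups of 3 mice: wild-type (WT) mice given corn oil, WT mice given CITCO, CITCO-treated hCAR/hPXR mice, in which human CAR and human PXR stand in for the mouse receptors, and CITCO-treated Car KO/hPXR mice, which have human PXR and no CAR. CITCO is an activator of human CAR, the constitutive androstane receptor, and PXR is the related pregnane X receptor. The paper cites work, mainly in cell lines, which proposes that CITCO may activate human PXR as well. CITCO was given intraperitoneally at 10 mg/kg daily for 4 days per the labels, with corn oil as vehicle for the control group. Livers were taken on day 5. The humanised lines share human PXR and the loss of mouse Car, and differ in human CAR. No corn oil library from a humanised line was analysed here, so the effect of CITCO in those lines and the effect of genotype cannot be told apart.

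In hepatocytes, citrate exported from mitochondria is split to acetyl-CoA, which is carboxylated to malonyl-CoA and built into palmitate with NADPH as reductant. Palmitate is then elongated and desaturated. The pathway is switched on by insulin through the transcription factor SREBP-1c and by glucose through ChREBP, and it is low in the fasted state, so its genes are known to vary together with feeding and with time of day.

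The sequence just before the start of transcription is shown for 3 genes, the 2 that passed a test between groups (Acly and Elovl5) and Fasn, which followed Acly most closely. Each line holds the 250 bases before the RefSeq start on GRCm38.p6, 5' to 3' on the strand of the gene, from chr11:100528001-100528250 (minus strand) for Acly, chr11:120824548-120824797 (minus strand) for Fasn and chr9:77917115-77917364 (plus strand) for Elovl5. Capitals mark matches on either strand to 3 motifs known from lipogenic promoters: the GC box GGGCGG bound by Sp1, the CCAAT box bound by NF-Y, and the E-box CACGTG. The ATTGG and CCAAT matches of Fasn share letters.
Acly: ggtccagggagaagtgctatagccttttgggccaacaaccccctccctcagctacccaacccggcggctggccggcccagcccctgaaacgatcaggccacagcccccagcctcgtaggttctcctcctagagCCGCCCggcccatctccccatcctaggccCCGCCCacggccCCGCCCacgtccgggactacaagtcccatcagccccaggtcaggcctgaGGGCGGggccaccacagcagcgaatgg
Fasn: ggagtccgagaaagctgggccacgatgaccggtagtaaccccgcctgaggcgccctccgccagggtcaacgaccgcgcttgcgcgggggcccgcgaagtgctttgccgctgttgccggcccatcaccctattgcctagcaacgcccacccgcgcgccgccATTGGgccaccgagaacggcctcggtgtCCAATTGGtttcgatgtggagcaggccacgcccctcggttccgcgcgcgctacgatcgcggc
Elovl5: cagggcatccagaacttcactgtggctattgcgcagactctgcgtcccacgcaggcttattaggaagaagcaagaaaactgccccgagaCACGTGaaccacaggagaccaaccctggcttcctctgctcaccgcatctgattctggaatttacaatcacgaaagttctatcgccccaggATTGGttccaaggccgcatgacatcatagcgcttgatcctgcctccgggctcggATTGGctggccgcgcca
A RefSeq window was matched for 9 of the 10 genes, with no entry used for Scd1. CCAAT was found in windows of 5 of the 9 (Fasn, Me1, Srebf1, Thrsp and Elovl5) and in 33.8% of the 32851 mouse windows of the same length. GGGCGG was found for 4 (Acly, Me1, Srebf1 and Fads2), against 32.7% of all windows, and CACGTG for Elovl5 alone, against 6.02%. The sterol regulatory element letters TCACNCCAC (1.05% of windows) and the DR4 element (AGGTCA repeated on the same strand after 4 bases, 0.0152%) were in none of the 9. Me1 and Srebf1 have more than 1 window, which gives them more chances of a match. No motif was common to all 9.

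Libraries, prepared with a 3' mRNA kit, held between 1167027 and 2341572 counts, with the lowest median in the Car KO/hPXR group (1255188). The 10 genes had between 15 counts (Fads2) and 10631 counts (Scd1) in a library. Mouse Nr1i2 (Pxr) and Nr1i3 (Car) separated WT from humanised mice as labelled in all 12 libraries. Counts were 100 to 287 in WT mice and 0 to 6 in the humanised lines. The humanised lines were alike (Nr1i3 at 0 to 6 in hCAR/hPXR and 2 to 5 in Car KO/hPXR mice). These counts therefore cannot check the labels of those lines against each other. Over all genes replicate 3 of the WT CITCO group stood apart from replicates 1 and 2 (chi-square per degree of freedom of 12.1 and 15.6, against 6.66 between those 2), as did replicate 3 of the hCAR/hPXR group (17.4 and 14.5, against 9.72), while pairs in the other groups ranged from 4.33 to 9.84. Levels are given as CPM, counts scaled to library size by edgeR's TMM method, and are compared between groups and not between genes.

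The enzymes that supply carbon and reducing power come first. Acly, ATP citrate lyase, makes cytosolic acetyl-CoA from citrate (ENSMUSG00000020917, chr11:100476353-100528000 of GRCm38, minus strand). In WT mice given corn oil it was at 99.0, 207 and 224 CPM, in WT mice given CITCO at 114, 103 and 144, in hCAR/hPXR mice at 131, 142 and 178, and in Car KO/hPXR mice at 444, 215 and 342. The 3 Car KO/hPXR mice all lay above every mouse given CITCO of the other genotypes, while 1 of them lay within the range of the corn oil mice. Group means were 177 ± 67.7, 120.3 ± 21.4, 150.4 ± 24.9 and 333 ± 115 CPM (SD, n = 3 each, in that order of groups). The difference among the 4 groups passed the test (adjusted p = 0.0217, edgeR's quasi-likelihood F test with Benjamini-Hochberg adjustment over 8594 genes). Me1, malic enzyme, gives NADPH (ENSMUSG00000032418, chr9:86581371-86695953). It was at 273 ± 117 CPM in WT mice given corn oil, 213 ± 88.5 in WT mice given CITCO, 182 ± 28.5 in hCAR/hPXR mice and 302 ± 55.9 in Car KO/hPXR mice (SD, n = 3 each), and did not pass over the 4 groups (adjusted p = 0.506 in the same edgeR test).

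Acaca and Fasn build the chain. Acaca, acetyl-CoA carboxylase alpha, makes malonyl-CoA in the step that commits carbon to synthesis (ENSMUSG00000020532, chr11:84129672-84401651). Its means in the same order of groups were 47.6 ± 20.6, 36.1 ± 7.58, 51.2 ± 17.2 and 64.6 ± 6.73 CPM (SD, n = 3 each; adjusted p over the 4 groups 0.513 in the edgeR test). Fasn, fatty acid synthase, makes palmitate (ENSMUSG00000025153, chr11:120805846-120824547). It was at 154, 355 and 508 CPM in WT mice given corn oil, at 139, 119 and 208 in WT mice given CITCO, at 187, 193 and 204 in hCAR/hPXR mice, and at 659, 219 and 476 in Car KO/hPXR mice. The hCAR/hPXR mice were close to each other, whereas corn oil and Car KO/hPXR mice each spread widely. The lowest Car KO/hPXR mouse was barely above the highest WT mouse given CITCO. Means were 339 ± 178, 155 ± 46.4, 195 ± 8.32 and 451 ± 221 CPM (SD, n = 3 each), and the difference over the 4 groups did not pass (adjusted p = 0.0801, edgeR).

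Elovl5 and Elovl6 are elongases, Elovl6 acting mainly on palmitate and Elovl5 mainly on polyunsaturated chains. Elovl5 (ENSMUSG00000032349, chr9:77917364-77984519) was at 609, 844 and 1083 CPM in WT mice given corn oil, at 353, 351 and 761 in WT mice given CITCO, at 355, 426 and 536 in hCAR/hPXR mice, and at 1313, 864 and 1093 in Car KO/hPXR mice. All hCAR/hPXR mice lay below all Car KO/hPXR and all corn oil mice, and 1 WT mouse given CITCO lay among the corn oil mice. Means were 845 ± 237, 488 ± 236, 439 ± 91.1 and 1090.2 ± 225 CPM (SD, n = 3 each). The 4 groups differed (adjusted p = 0.0330, edgeR's quasi-likelihood F test). Elovl6 (ENSMUSG00000041220, chr3:129532355-129638495) was at 65.1 ± 38.4, 53.1 ± 6.62, 73.4 ± 4.78 and 93.1 ± 8.66 CPM (SD, n = 3 each; adjusted p = 0.497, edgeR). The mice given CITCO were tightly grouped within each genotype for Elovl6 and did not overlap between genotypes, while the corn oil mice ran from 31.4 to 107 CPM.

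Scd1 and Fads2 are desaturases. Scd1 makes oleate and palmitoleate from saturated chains (ENSMUSG00000037071, chr19:44394455-44407879, minus strand). It was at 2103, 2992 and 4400 CPM in WT mice given corn oil, at 642, 1001 and 2595 in WT mice given CITCO, at 1424, 1559 and 4596 in hCAR/hPXR mice, and at 6755, 3858 and 5720.4 in Car KO/hPXR mice. In each of the WT CITCO and hCAR/hPXR groups 1 mouse, replicate 3, stood well above the others, and the high hCAR/hPXR mouse lay inside the Car KO/hPXR range. Means were 3165 ± 1158, 1412 ± 1039.6, 2526 ± 1794 and 5444 ± 1468 CPM (SD, n = 3 each), and the gene did not pass over the 4 groups (adjusted p = 0.154, edgeR). Fads2, the delta-6 desaturase of polyunsaturated synthesis (ENSMUSG00000024665, chr19:10062765-10101746), was at 18.6 ± 4.84, 15.4 ± 4.42, 13.98 ± 1.52 and 21.6 ± 6.48 CPM (SD, n = 3 each), on 15 to 41 counts per library.

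Srebf1 and Thrsp regulate the pathway. Srebf1 encodes SREBP-1 (ENSMUSG00000020538, chr11:60199089-60222581). It was at 59.7 ± 30.1, 58.6 ± 14.5, 47.0 ± 16.3 and 80.5 ± 36.5 CPM (SD, n = 3 each). Its isoforms 1a and 1c have separate first exons and were not told apart by 3' counts, and its last exon overlaps the end of Rai1 on the opposite strand, so reads there are uncertain unless strand was used. Thrsp, the thyroid hormone responsive Spot 14 protein that promotes lipogenesis (ENSMUSG00000035686, chr7:97412938-97417730), was at 1217 ± 773, 706 ± 77.5, 992 ± 252 and 1804 ± 625 CPM (SD, n = 3 each; adjusted p over the 4 groups 0.237, edgeR). Every Car KO/hPXR mouse was above every WT mouse given CITCO for Thrsp (1089 to 2243 against 645 to 793 CPM), while the groups overlapped for Srebf1. Over the 4 groups 2 of the 10 genes passed, Acly and Elovl5, where 1.42% of all genes tested passed, and 5 of the 10 had an unadjusted p under 0.05, where 11.6% of all genes did.

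**Figure D1:**
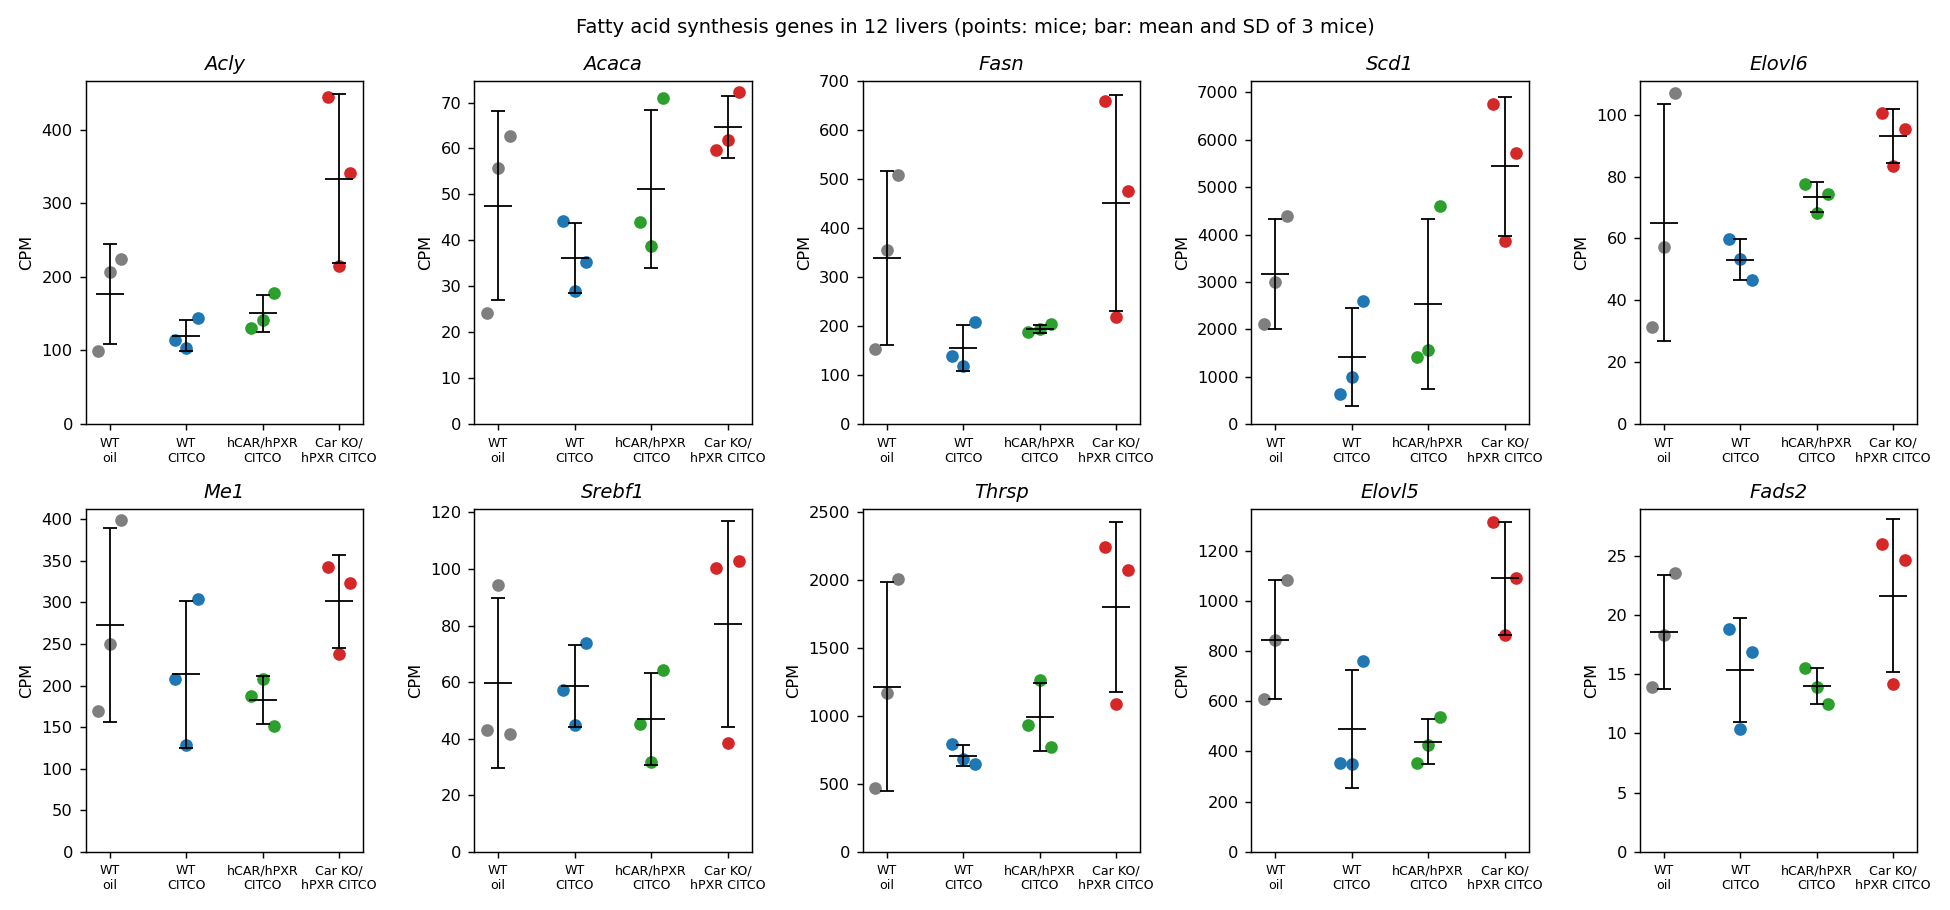
Level of each of the 10 genes in CPM (linear axes from 0) in the 4 groups; points are mice and bars the mean and SD of 3 mice. The Car KO/hPXR mean is the highest of the 4 in all 10 panels. The mice of that group span a wide range in the Fasn, Srebf1, Thrsp and Acly panels (SD of 49.0%, 45.3%, 34.6% and 34.5% of the mean).

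The order of the group means was alike for the 10 genes. The Car KO/hPXR mean was the highest for 10 of 10, and the lowest was WT CITCO for 6 and hCAR/hPXR for 4. Neighbouring groups in these orders overlapped for 9 of the 10 genes, the exception being Elovl6, with Car KO/hPXR mice at 83.5 to 100 and hCAR/hPXR mice at 68.3 to 77.7 CPM. No pair of neighbours passed edgeR's test (adjusted p of 0.346 or more). The calls below come from groups at the ends of the order.

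With both groups given CITCO, all 10 genes had higher means in Car KO/hPXR than in WT mice (49.5% of all genes had), and Acly passed the test. Acly was 2.78-fold higher (log2 fold change 1.47 with SE 0.28, edgeR adjusted p = 0.0304), which makes 1 of 10 genes called at an adjusted p under 0.05 and a fold over 1.5, against 0.256% of all genes tested. The median log2 fold change of the 10 was 0.996, with a range from 0.46 (Srebf1) to 1.95 (Scd1), beside a median of -0.0039 over all genes. An unadjusted p under 0.05 was found for 7 of the 10, against 9.3% of all genes. In 7 of the 10 every Car KO/hPXR mouse lay above every WT mouse, a pattern shown in this direction by 7.45% of all genes.

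The other genes of that contrast had sizeable but uncertain differences. Scd1 had a log2 fold change of 1.95 (95% interval 0.96 to 2.94, adjusted p = 0.0984, edgeR), Fasn 1.54 (0.77 to 2.31, adjusted p = 0.0958), Thrsp 1.35 (0.59 to 2.12, adjusted p = 0.143) and Elovl5 1.16 (0.57 to 1.74, adjusted p = 0.0977). Acaca and Elovl6 were at 0.83 and 0.81, and Me1, Fads2 and Srebf1 at 0.50, 0.50 and 0.46, with intervals for the last 3 that include 0. The call of Acly depended on single mice. It was lost without WT CITCO replicate 1 (adjusted p = 0.203), WT CITCO replicate 2 (0.210), Car KO/hPXR replicate 1 (0.126) or Car KO/hPXR replicate 3 (0.0933, edgeR in each case), with log2 fold changes between 1.21 and 1.46. Without WT CITCO replicate 3, Acly stayed called (1.62, adjusted p = 0.0233) and Scd1 (2.73, adjusted p = 0.00852) and Elovl5 (1.63, adjusted p = 0.00430, edgeR) were called as well.

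Mice with human CAR were then compared with mice without CAR, both with human PXR and CITCO. All 10 genes had lower means in the mice with human CAR (48.5% of all genes had), with a median log2 fold change of -0.83 and a range from -1.31 to -0.34 (0.01 over all genes). Elovl5 was called, 2.49-fold lower in hCAR/hPXR mice (log2 fold change -1.31 with SE 0.28, edgeR adjusted p = 0.0372), 1 of 10 genes beside 0.582% of all genes. Acly was the next smallest by p, 2.23-fold lower with an adjusted p of 0.0635. An unadjusted p under 0.05 was found for 7 of the 10, against 10.6% of all genes, and in 5 of the 10 (Acly, Fasn, Elovl6, Me1 and Elovl5) every hCAR/hPXR mouse lay below every Car KO/hPXR mouse, against 7.06% of all genes. The call of Elovl5 held without Car KO/hPXR replicate 2 (adjusted p = 0.0437). It was lost without hCAR/hPXR replicate 1 (0.181), 2 (0.101) or 3 (0.0669) and without Car KO/hPXR replicate 1 (0.171) or 3 (0.122), and with scaling to the library total alone (0.0644, all edgeR). This comparison shares the Car KO/hPXR libraries with the one before, so the same mice set the direction of both.

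With CITCO in both, hCAR/hPXR and WT mice showed no common direction of difference. Means were higher in hCAR/hPXR mice for 6 genes and lower for 4 (51.6% of all genes were higher), with a median log2 fold change of 0.32, and 0 of the 10 were called (0.407% of all genes were) or had an unadjusted p under 0.05 (8.81% of all genes) in edgeR's test. DESeq2's Wald test also called 0. Dropping hCAR/hPXR replicate 3 took the median to 0.13, dropping WT CITCO replicate 2 took it to 0.18, and dropping WT CITCO replicate 3 turned the split to 8 higher and 2 lower. Scd1 had the largest difference, 0.84 with a 95% interval from -0.12 to 1.80, and it was at 1.62 without WT CITCO replicate 3 and 0.08 without hCAR/hPXR replicate 3. The interval for Acly ran from -0.27 to 0.90 and that for Elovl5 from -0.74 to 0.43, so that differences of up to these sizes remain possible. Elovl6 was the 1 gene of the 10 in which hCAR/hPXR mice all lay above WT mice, which 7.12% of all genes did.

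In WT mice all 10 genes had lower means with CITCO than with corn oil (50% of all genes had), and 0 were called. The median log2 fold change was -0.46, from -1.16 (Scd1) to -0.01 (Srebf1). That median rested on single mice: it was -0.21 (8 of 10 lower) when WT corn oil replicate 3 was dropped, -0.77 when replicate 1 of that group was, and -0.69 when WT CITCO replicate 3 was (10 lower in both). An unadjusted p under 0.05 was found for 4 of the 10 (Fasn, Scd1, Thrsp and Elovl5) against 9.13% of all genes, and 0 of the 10 had an adjusted p under 0.05 in edgeR's or DESeq2's test, where edgeR called 0.233% of all genes. Fasn was at -1.12 (95% interval -1.89 to -0.36, adjusted p = 0.302) and Elovl5 at -0.79 (-1.37 to -0.21, adjusted p = 0.346, edgeR). The groups overlapped for all 10 genes, whereas 7.85% of all genes were lower without overlap. WT corn oil replicate 1 was below the median of the 12 libraries for all 10.

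The remaining comparisons, of each humanised line given CITCO with WT mice given corn oil, change genotype and treatment at once. In Car KO/hPXR mice all 10 means were higher than with corn oil, where 50% of all genes were, with a median log2 fold change of 0.46 and 0 genes called (0.0465% of all genes). Leaving out WT corn oil replicate 1 gave a median of 0.18 (9 of 10 higher), and leaving out replicate 3 of that group gave 0.78. An unadjusted p under 0.05 was found for 1, Acly at 0.93 (adjusted p = 0.491, edgeR), against 5.6% of all genes, and 0 were higher without overlap, against 5.63%. In hCAR/hPXR mice 8 of 10 were lower, where 48.7% of all genes were, with a median of -0.34 and 0 called (0.989% of all genes). Here the same 2 omissions gave medians of -0.56 (10 of 10 lower) and -0.10 (7 of 10), and it was -0.19 with limma on the deposited values. An unadjusted p under 0.05 was found for 2, Elovl5 at -0.95 (adjusted p = 0.145) and Fasn at -0.80 (adjusted p = 0.432, edgeR), against 10.9% of all genes, and Elovl5 was the 1 gene lower without overlap, against 7.68%. The mean of the corn oil mice thus lay between those of the humanised lines for 8 of the 10 genes. DESeq2 also called 0 of the 10 in both, and all comparisons with corn oil share the same 3 control mice.

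**Figure D2:**
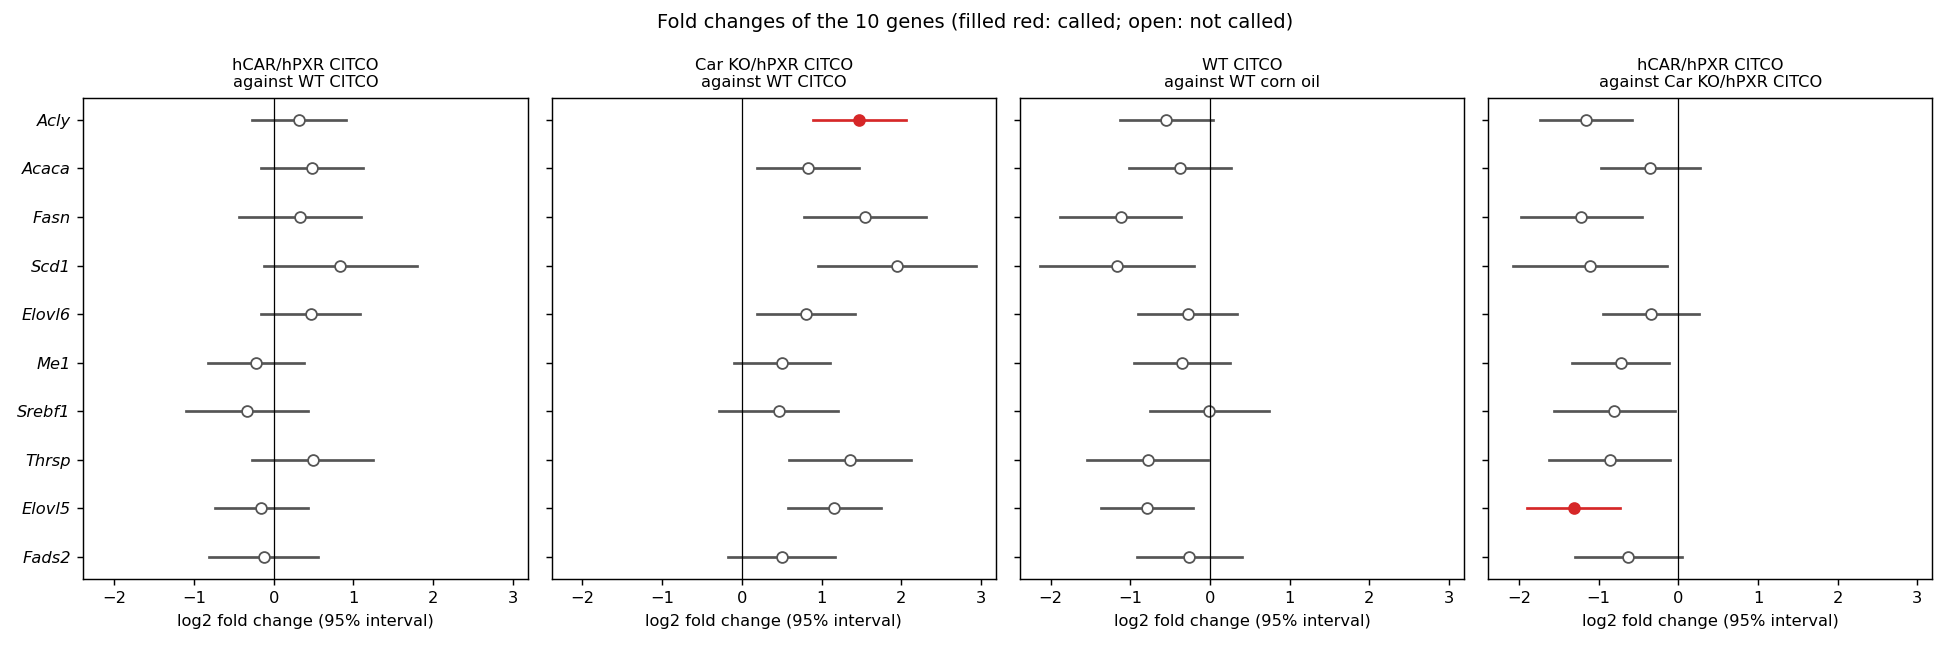
Log2 fold change (x axis) of the 10 genes in 4 comparisons, with 95% intervals from edgeR's fit; filled red marks genes called at an adjusted p under 0.05 and a fold over 1.5. Acly in Car KO/hPXR against WT CITCO (1.47) and Elovl5 in hCAR/hPXR against Car KO/hPXR (-1.31) are the called genes, and every point of those 2 panels lies on 1 side of 0.

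The 10 genes moved together from mouse to mouse, also within groups. Over the 12 libraries the correlation of log2 CPM was above 0 for 45 of 45 pairs of genes and above 0.5 for 39, with a median r of 0.69. It was highest for Acly with Fasn (0.93) and lowest for Elovl6 with Srebf1 (0.17). After the mean of each group was taken away, 45 of 45 were still above 0 and 29 above 0.5, with a median of 0.59. Before that step, over the 12 libraries, Srebf1 was the least tied to the rest (median r with the other 9 of 0.48) and Fasn the most (0.84). Within groups Scd1 was the least tied (0.46) and Fasn the most (0.79). These are descriptions over 12 libraries that share group, library and scaling, and the points are not independent.

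Put on a common scale (each gene's log2 CPM in SD units around its own mean), the mean of the 10 was highest in Car KO/hPXR replicates 1 (1.40) and 3 (1.22), followed by WT corn oil replicates 3 (0.91) and 2 (0.38). Car KO/hPXR replicate 2 was at 0.14, closer to the mice of other groups than to its own. The lowest value, -1.18, was in WT CITCO replicate 2, and the next, -1.03, in the first corn oil mouse. The corn oil group thus held both a high and a low mouse.

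**Figure D3:**
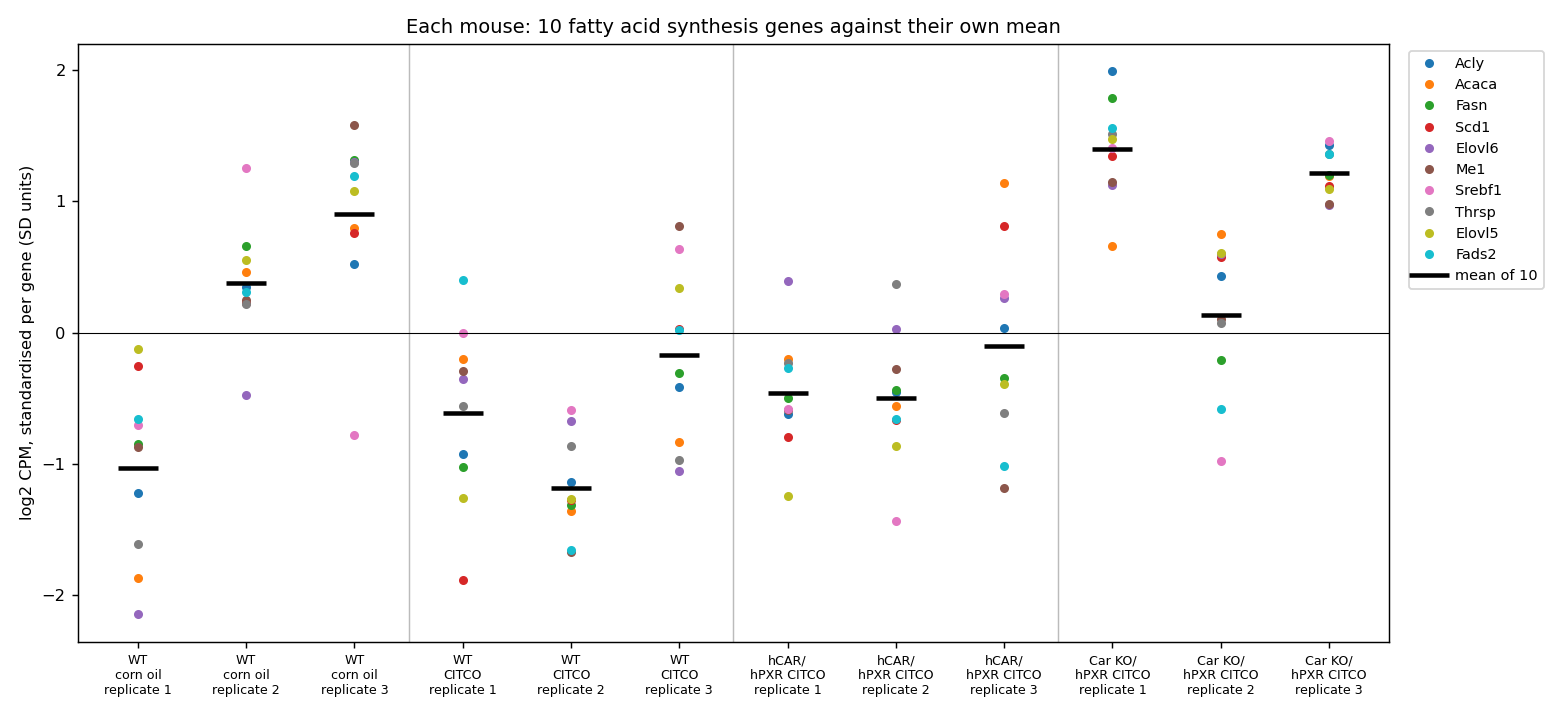
Each mouse on the x axis, with the log2 CPM of the 10 genes in SD units around each gene's own mean on the y axis; colours are genes and the black bar is the mean of the 10. Car KO/hPXR replicates 1 and 3 have all 10 genes above their mean, while the corn oil mice range from a mean of -1.03 to 0.91.

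Outside the 10 genes, the 5 whose log2 CPM followed the mean of the 10 most closely, among 4473 other genes with a mean of at least 20 CPM, included Acsl5 (r = 0.91 over 12 libraries), Acacb (0.89) and Fabp5 (0.86). Acsl5 activates long-chain fatty acids, Acacb is the mitochondrial acetyl-CoA carboxylase, and Fabp5 binds fatty acids. None of these 3 passed the test in the 6 comparisons. Acsl5 had a log2 difference of 0.81 for Car KO/hPXR against WT mice given CITCO (SE 0.17, adjusted p = 0.0579) and -0.65 for hCAR/hPXR against Car KO/hPXR mice (SE 0.17, adjusted p = 0.114, edgeR).

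The precursor and NADPH supply list held 8 further genes, all tested. Acss2, acetyl-CoA synthetase, which makes acetyl-CoA from acetate, was the called gene of the list. It was at 84.6, 123 and 94.2 CPM in WT mice given corn oil, at 51.9, 51.9 and 80.2 in WT mice given CITCO, at 36.3, 42.8 and 40.9 in hCAR/hPXR mice, and at 179.8, 104.4 and 152 in Car KO/hPXR mice. The hCAR/hPXR mice lay below all other mice and the Car KO/hPXR mice above all others given CITCO. It rose 2.38-fold in Car KO/hPXR against WT mice given CITCO (log2 1.25, SE 0.22, adjusted p = 0.0248), was 3.65-fold lower with human CAR than without CAR (log2 -1.87, SE 0.23, adjusted p = 0.000597) and was 2.51-fold lower in hCAR/hPXR mice than in WT mice given corn oil (adjusted p = 0.00659, edgeR). The call against Car KO/hPXR mice held with any single library left out (adjusted p of at most 0.00867). The call of Car KO/hPXR against WT CITCO did not hold without WT CITCO replicate 1 (0.178) or 2 (0.198) or Car KO/hPXR replicate 1 (0.108) or 3 (0.0855), and the call against corn oil not without WT corn oil replicate 2 (0.0568). The other 7 genes had 0 calls, and the list's median log2 fold change was 0.22 in the first of these comparisons and -0.25 in the second.

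Of 14 other genes of synthesis, elongation and desaturation 12 were tested and 0 called in any comparison by edgeR. The paper, with DESeq2, lists 1 of these genes, Acsl1, as lower in hCAR/hPXR than in WT mice given CITCO. Here Acsl1 was at 428 ± 80.7 and 688 ± 37.4 CPM in those groups (SD, n = 3 each). Acsl5 and Acacb had the smallest p over the 4 groups (adjusted p of 0.0531 and 0.0659, edgeR). Acsl5 was at 634 ± 31.1 CPM in Car KO/hPXR mice and 363 ± 52.8 in WT mice given CITCO (SD, n = 3 each), and Acacb at 73.3 ± 16.8 and 29.3 ± 0.879. The list was higher for 10 of 12 in that comparison, where 49.5% of all genes were, with a median log2 fold change of 0.35.

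Of 12 regulators of the pathway (the SREBP, ChREBP and LXR factors and their partners, without Srebf1) 10 were tested. Insig2, which holds SREBP in the endoplasmic reticulum, was called in 2 comparisons. It was at 83.3, 150.2 and 136 CPM in WT mice given corn oil, at 61.0, 38.0 and 47.8 in WT mice given CITCO, at 94.8, 100.7 and 68.4 in hCAR/hPXR mice, and at 101, 142 and 103 in Car KO/hPXR mice. The WT mice given CITCO lay below all 9 others. Insig2 was 2.34-fold higher in Car KO/hPXR than in WT mice given CITCO (adjusted p = 0.0378) and 2.49-fold lower with CITCO than with corn oil in WT mice (adjusted p = 0.0250, edgeR). The first call was lost when any of its 6 libraries was left out (adjusted p from 0.0657 to 0.228), and the second without WT corn oil replicate 2 (0.159) or 3 (0.151) or WT CITCO replicate 1 (0.0529) or 2 (0.208). Insig1, its relative, differed over the 4 groups (adjusted p = 0.0471) but was called in no pair. Mlxipl, which encodes ChREBP, differed by 0.23 on the log2 scale for Car KO/hPXR against WT CITCO and by -0.18 for hCAR/hPXR against Car KO/hPXR. Nr1h3, which encodes LXR alpha, differed by 0.15 and 0.08, and neither gene was called. The median log2 fold changes of the list were 0.21 for Car KO/hPXR against WT CITCO and -0.06 for hCAR/hPXR against Car KO/hPXR.

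**Figure D4:**
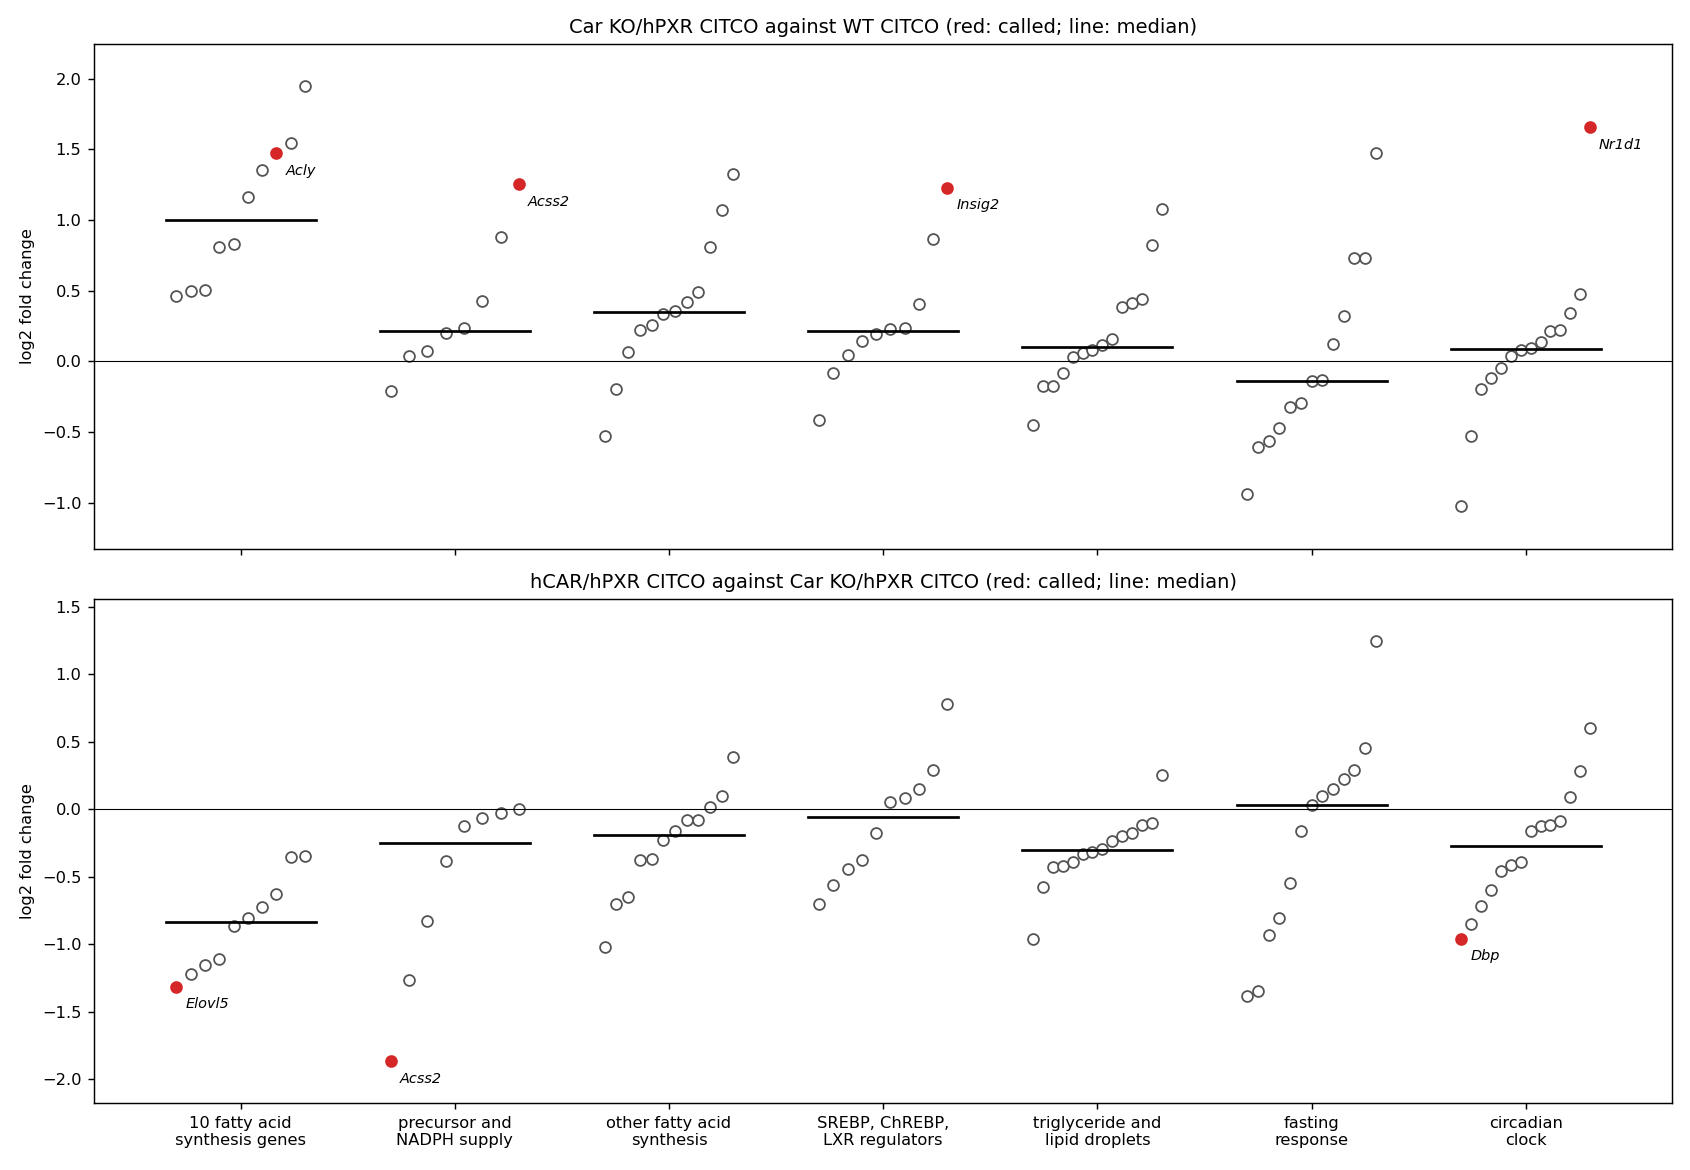
Log2 fold change (y axis) of each tested gene in the 10 fatty acid synthesis genes and 6 other gene lists, for Car KO/hPXR against WT CITCO (top) and hCAR/hPXR against Car KO/hPXR (bottom); red marks called genes, with names, and lines the median of a list. The medians of the 10 genes, 0.996 and -0.83, are the farthest from 0 of the lists in both panels.

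The tissue is liver by its markers: 8 of 8 hepatocyte markers were tested, and their summed level lay between 28120 and 45930 CPM in hCAR/hPXR mice and between 33830 and 40920 in the other groups. Several of these lipogenic genes are also high in fat tissue. Adipocyte markers had 6 of 8 genes matched to counts and 1 tested (Lipe). Adipoq had 5 counts and Plin1 3 counts over all 12 libraries, each at 0 in 9 of them. Over the same libraries Cidea had 2 counts, Cfd 13, Fabp4 81 and Lipe 234. The summed level of the adipocyte list was 11.3 to 25.4 CPM in WT mice given corn oil, 15.9 to 27.9 in WT mice given CITCO, 10.0 to 11.6 in hCAR/hPXR mice and 14.2 to 32.4 in Car KO/hPXR mice. Every mouse with human CAR was therefore below every Car KO/hPXR mouse for this sum, which was mostly Lipe and Fabp4. The part of fat tissue in the results was not tested. Kupffer cell markers (7 of 7 tested) summed to 261 to 312 CPM with corn oil and 307 to 465 in WT mice given CITCO. The sums were 383 to 519 in hCAR/hPXR mice and 313 to 367 in Car KO/hPXR mice. Of these 7 genes, 6 had lower means in Car KO/hPXR against WT mice given CITCO (median log2 fold change -0.39, 0 called). In hCAR/hPXR against Car KO/hPXR mice 6 had higher means (median 0.40, 0 called). The part of Kupffer cells in the results was not tested either. Stellate cell and fibroblast markers (6 of 7 tested) had lower means for 6 of 6 in Car KO/hPXR against WT mice given CITCO (median log2 fold change -0.44, 0 called), with sums of 200.1 to 278 and 272 to 388 CPM, and higher means for 5 of 6 in hCAR/hPXR (278 to 316 CPM) against Car KO/hPXR mice. Red blood cell markers (5 of 6 tested) had lower means for 5 of 5 in hCAR/hPXR against Car KO/hPXR mice (median -0.34, 0 called), with sums of 1859 to 2194 and 2138 to 3424 CPM. Over all genes 49.5% had higher means in Car KO/hPXR against WT mice given CITCO. In hCAR/hPXR against Car KO/hPXR mice 48.5% had lower means. The part of stellate cells, fibroblasts and red blood cells in the results was likewise not tested. In whole liver, fewer cells of a type and less RNA per cell cannot be told apart.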

How the data were processed

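RNAseq libraries were prepared from liver RNA with a 3' end kit for Ion Torrent. Per the submitters' processing notes the authors used FastQC 11.7, Trimmomatic 36, STAR 2.5.2 and RSEM 1.3 on GRCm38. The deposited expected counts per gene are not normalised. A second deposited table, on about a log2 scale, was made by the authors with DESeq2's variance-stabilising transformation, and was used here only for the gene symbols and as an alternative with limma.

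Groups were taken from the labels. After rounding the expected counts to integers, edgeR 4.0.16 was run in R 4.3.3 (filterByExpr, TMM, quasi-likelihood F test, 1 mean per group over 12 libraries), with limma 3.58.1 and DESeq2 1.42.0 as alternatives. The fitting code was tested on simulated data. Benjamini-Hochberg adjustment covered all 8594 genes tested, and a gene was called at an adjusted p under 0.05 and a fold over 1.5 (no fold for the test over 4 groups). A count of 3 is worth 1.34 to 2.50 CPM. Intervals are 95% intervals of the fit. Correlations used log2 CPM with a prior count of 2. Gene coordinates are from GENCODE on GRCm38, and promoter windows from RefSeq on GRCm38.p6.

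The 10 genes, the other lists and the tests were chosen with earlier results of these data known. All 10 are named. Values per mouse are given for genes called in a comparison or over the 4 groups, filled up to 4 by the smallest p over the 4 groups. From other lists the called genes are named, or else the 2 with the smallest p. The genes most like the 10 are the 5 with the highest r, of which some are not reported here.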

Additional observations from a re-analysis of the deposited data

How the results depend on the processing

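Direction was kept throughout for the comparisons on which calls rest: with every alternative run, all 10 genes were higher in Car KO/hPXR than in WT CITCO mice (median log2 fold change 0.88 to 1.09) and lower with human CAR than without CAR (-1.13 to -0.65), while the number called changed. In Car KO/hPXR against WT CITCO, 1 of the 10 was called, 7 without a filter on low counts, 3 with limma on the deposited values, 4 with only the 2 groups fitted, and 0 to 3 with 1 library left out. In hCAR/hPXR against Car KO/hPXR, 1 was called, 0 with the library total alone, 2 with DESeq2, 7 without a filter, 2 with only the 2 groups, and 0 to 3 with 1 library left out. Without a filter the number went from 0 to 1 in hCAR/hPXR against WT CITCO, to 4 in WT CITCO against corn oil (up to 1, Elovl5, without WT CITCO replicate 3) and to 2 in each comparison of a humanised line with corn oil. Over the 4 groups 2 passed, 1 with the library total alone, 6 without a filter, and 0 to 4 with 1 library left out. The replicate numbers did not pair the mice (median correlation of deviations 0.00 over 18 same-numbered pairs, 2 of them above 0.1). With replicate number as a block 3 genes were called in Car KO/hPXR against WT CITCO (Acly, Scd1 and Elovl5) and the other comparisons kept their counts within 1.5 times. Over all genes the calls went from 35 to 184 (hCAR/hPXR against WT CITCO), 22 to 227 (Car KO/hPXR against WT CITCO), 20 to 179 (CITCO against corn oil), 50 to 233 (hCAR/hPXR against Car KO/hPXR), 85 to 261 and 4 to 95 (each line against corn oil) and 122 to 540 (4 groups) without a filter. In the same order they were 65, 69, 45, 99, 124, 12 and 225 with DESeq2, and with 1 library left out they ranged from 17 to 32, 5 to 58, 6 to 54, 10 to 58, 25 to 91, 3 to 6 and 60 to 160. In Car KO/hPXR against WT CITCO they were 33 of 17859 genes with limma, 40 of 7640 with only the 2 groups and 24 of 8594 with the block. In hCAR/hPXR against Car KO/hPXR they were 58 of 7600 with only the 2 groups and 39 of 8594 with the library total alone. Some uncalled log2 differences near 0 changed sign. With 1 library left out they ranged, in hCAR/hPXR against WT CITCO, from -0.502 to 0.119 for Me1, -0.359 to 0.313 for Elovl5 (both positive without WT CITCO replicate 3) and -0.358 to 0.0452 for Fads2 (positive without WT CITCO replicate 1), and in WT CITCO against corn oil from -0.628 to 0.291 for Elovl6, -0.695 to 0.0279 for Me1 (both positive without WT corn oil replicate 3) and -0.207 to 0.476 for Srebf1. Srebf1 was at 0.0018 there with a filter of 20 CPM, at 0.0272 with limma, and at 0.0117 or 0.161 when WT CITCO replicate 1 or 2 was dropped. The causes were not tested. With 3 mice a group and 1167027 to 2341572 counts a library, the 95% interval of a called gene was still wide (0.89 to 2.06 for Acly in Car KO/hPXR against WT CITCO), and a difference that did not pass may be real.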

Other observations

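Triglyceride synthesis and lipid droplet genes (14 of 19 tested) had 0 calls in all 6 comparisons by edgeR. In hCAR/hPXR against Car KO/hPXR mice 13 of 14 had lower means (48.5% of all genes had), with a median log2 fold change of -0.30. Lpin1, a phosphatidate phosphatase of triglyceride synthesis, was at 449 ± 160 CPM in Car KO/hPXR mice and 212 ± 23.6 in WT mice given CITCO (SD, n = 3 each; log2 1.08, adjusted p = 0.193, edgeR). Fabp1, the liver fatty acid binding protein, was at 2425 ± 175 in hCAR/hPXR and 3685 ± 338 in WT mice given CITCO (log2 -0.60, adjusted p = 0.172, edgeR).

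Of the genes of the fasting response (13 of 15 tested), 10 had lower means in hCAR/hPXR mice against WT mice given CITCO. In that comparison 51.6% of all genes had higher means. Against WT mice given corn oil 10 were lower too (48.7% of all genes were), with log2 fold changes from -2.09 to 1.22. There 8 of the 13 had an unadjusted p under 0.05 in either direction, beside 10.9% of all genes (edgeR). Igfbp1, an insulin-repressed binding protein of insulin-like growth factors, was at 210, 193 and 314 CPM in hCAR/hPXR mice and at 27.2, 19.4 and 61.9 in WT mice given CITCO, 6.60-fold higher (log2 2.72, SE 0.37, edgeR adjusted p = 0.000783), and the call held in each of 14 alternatives. Its levels with corn oil were 116, 97.3 and 93.0 CPM, between the 2. Cyp4a10, a PPAR alpha target, was 4.27-fold lower in hCAR/hPXR mice than in WT mice given corn oil (adjusted p = 0.0147, edgeR), a call lost without WT corn oil replicate 1 (0.0938) or any hCAR/hPXR replicate (0.0608 to 0.0735). In Car KO/hPXR mice against corn oil all 13 tested genes had lower means, where 50% of all genes had higher means. Of these 13, 0 were called, and the median log2 fold change was -0.18. Of the circadian clock list (14 of 16 tested), Nr1d1, a repressor of the clock, was 3.15-fold higher in Car KO/hPXR than in WT mice given CITCO (adjusted p = 0.0298, edgeR), and Dbp, a clock output factor, fell by 0.96 on the log2 scale in hCAR/hPXR against Car KO/hPXR mice (adjusted p = 0.0390, edgeR). Each of these clock calls was lost when any of 4 libraries was left out in turn (adjusted p up to 0.205 and 0.212, edgeR). Of 14 alternatives the call held in 10 for Nr1d1 and in 8 for Dbp. Among cell type markers 4 genes were called, all in hCAR/hPXR mice against WT mice given corn oil, where 0.989% of all genes were. Hpx, Fgb and Marco were higher and Alas2 lower, with adjusted p-values from 0.0202 to 0.0486 (edgeR). Hpx and Fgb are from the hepatocyte list, in which 5 of 8 genes had lower means there (median log2 fold change -0.19). Marco is from the Kupffer cell list (6 of 7 higher) and Alas2 from the red blood cell list (5 of 5 lower). Lower means were found for 48.7% of all genes. Each of the 4 called genes lost its call in 4 or 5 of the 6 fits with a library left out. Over all 14 alternatives the call held in 5 for Hpx, 6 for Fgb and 9 each for Marco and Alas2.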
